A study of Homo sapiens with 74 samples.

Results

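The Mediator genes were taken as every gene whose symbol is MED followed by a number, with or without a final L, together with CDK8, CDK19 and CCNC. This rule uses names only and no measured value. It found 33 genes among the 28131 genes of each of the deposited count tables, the same 33 in K562 and in HEL. All 33 passed the filter on low counts in all 5 comparisons. The K562 groups were filtered together, and MED12L passed there only through the cells without DOT1L.

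K562 and HEL are established human leukaemia cell lines with erythroid features. The series studied the complex of DOT1L, the enzyme that methylates lysine 79 of histone H3, and of its partner ENL, whose gene symbol is MLLT1. Of its 74 samples, 13 measured polyadenylated RNA by sequencing and were used, while 61 chromatin, nascent RNA and other samples were not analysed here. K562 had wild type control cells, cells labelled DOT1L-/- (DOT1L KO) and cells labelled ENL-/- (ENL KO). HEL had control cells and cells with DOT1L knockdown (DOT1L KD). The labels give no treatment beyond these genotypes. They do not say whether a knockout is 1 clone, by which agent DOT1L was knocked down, or whether replicates were separate cultures. P-values therefore measure only the spread between these libraries, which may be technical.

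Mediator is the large coactivator that carries signals from DNA-bound transcription factors to RNA polymerase II. Its core is built of a head, which touches the polymerase, a middle, a tail, which receives most activators, and the scaffold subunit MED14 that runs through them. A separate kinase module of CDK8 or CDK19, cyclin C (CCNC), MED12 or MED12L, and MED13 or MED13L docks onto the core reversibly and keeps the polymerase away while it is bound. CDK8 and CDK19, MED12 and MED12L, and MED13 and MED13L are paralogues, and a module holds 1 member of each pair.

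All 7 kinase module genes were chosen for naming. The bases just upstream of 4 of their start sites are shown, for the genes MED12L, CDK8, CCNC and MED13L. Each sequence is the 250 bases before a RefSeq start (GRCh38.p14), 5′ to 3′ in the direction of the gene. They lie at chr3:151085414-151085663 (plus strand) for MED12L, chr13:26253879-26254128 (plus strand) for CDK8, chr6:99568815-99569064 (minus strand) for CCNC and chr12:116277694-116277943 (minus strand) for MED13L. Capitals mark the letters of the GC box GGGCGG and of the CCAAT box CCAAT on either strand.
MED12L: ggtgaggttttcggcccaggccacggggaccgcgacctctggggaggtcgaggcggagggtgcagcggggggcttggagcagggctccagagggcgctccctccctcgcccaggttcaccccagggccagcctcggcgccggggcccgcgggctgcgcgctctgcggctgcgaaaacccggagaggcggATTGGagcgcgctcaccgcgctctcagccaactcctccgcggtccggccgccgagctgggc
CDK8: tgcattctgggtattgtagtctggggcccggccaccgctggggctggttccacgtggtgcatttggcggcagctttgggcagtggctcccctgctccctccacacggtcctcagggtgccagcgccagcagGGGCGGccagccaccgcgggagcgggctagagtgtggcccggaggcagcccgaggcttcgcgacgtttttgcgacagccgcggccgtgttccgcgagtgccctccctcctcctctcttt
CCNC: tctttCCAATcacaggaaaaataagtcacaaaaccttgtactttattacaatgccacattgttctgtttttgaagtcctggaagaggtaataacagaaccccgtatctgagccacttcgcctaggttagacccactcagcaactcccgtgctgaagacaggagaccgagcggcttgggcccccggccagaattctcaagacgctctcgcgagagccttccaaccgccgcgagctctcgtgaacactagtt
MED13L: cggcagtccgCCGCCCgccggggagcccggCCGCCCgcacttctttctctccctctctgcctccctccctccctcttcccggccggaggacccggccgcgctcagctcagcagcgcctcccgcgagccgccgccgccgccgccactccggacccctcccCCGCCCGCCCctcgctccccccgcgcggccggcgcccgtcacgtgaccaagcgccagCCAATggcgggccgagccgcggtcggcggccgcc

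The MED12L window held 29 CG dinucleotides and was 75.6% G or C, and that of MED13L held 40 and was 81.2% G or C. CDK8 had 21 CG dinucleotides and 68.8% G or C, and the CCNC window shown had 13 and 50.4%. Another CCNC window, at chr6:99568661-99568910, held 21 CG dinucleotides, was 61.6% G or C and had neither a GC box nor a CCAAT box. RefSeq windows were matched for 25 of the 33 Mediator genes, some with several starts, giving 30 windows. The median Mediator window held 17 CG dinucleotides, against 11 over all 35116 windows of the table, at a median G and C content of 58.2% against 58.0%. The GC box was in 17 of the 30 Mediator windows and in 42.6% of all windows, and the CCAAT box was in 11 of 30 and in 32.0%. The ETS motif CCGGAAG was in 6 of 30 windows (8.52% of all), and the GATA motif AGATAA was in 1 of 30, that of MED1 (9.17% of all). The TATA letters TATAAA were in 2 of 30 windows (10.7% of all), the NRF1 motif GCGCATGC in 2 (2.63%), the YY1 motif AAGATGGC in 2 (1.36%) and the E-box CAGCTG in 4 (14.0%). Both strands were searched, and the letters of none of the 8 motifs hold another. These matches describe letters in a window and were not tested against the expression values. The RefSeq start of MED12L lies 1134 bp before the first exon position that the count tables give, and that of MED13L lies 507 bp before it.

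Libraries held 12151495 to 29236703 counts, of which the Mediator genes took 0.215% to 0.262%. The columns of K562 control replicates 2 and 3 were identical in every gene and were counted as 1 library, which left 2 controls. The targeted transcripts were lower but still counted. In CPM, the usual count normalised to library depth and here scaled with TMM factors, DOT1L was at 262.8 in K562 control and 182.3 in DOT1L KO, and at 92.4 in HEL control and 29.6 in DOT1L KD, while MLLT1 was at 216.1 in K562 control and 154.4 in ENL KO. Of the defining markers, erythroid GATA1, KLF1, TAL1, TFRC, HBG2 and HBE1 averaged over 100 CPM in every group, lymphoid CD3E and CD79A averaged at most 1.75 CPM, and epithelial KRT5 was at 0. Megakaryocytic ITGA2B averaged 1288 CPM in HEL control and 4.86 in K562 control, where GP9 and PF4 were at 0. Marker levels shifted with the groups. The 8 erythroid markers summed to 6266 to 6698 CPM in K562 control, 9598 to 10078 in DOT1L KO, 8111 to 8254 in ENL KO, 6221 to 6351 in HEL control and 8517 to 9163 in DOT1L KD, with 7 of 8 above the control mean in each depleted group. The 4 megakaryocytic markers summed to 7.30 to 9.93 CPM in K562 control, 33.3 to 35.0 in DOT1L KO and 29.4 to 36.9 in ENL KO, and to 2386 to 2438 in HEL control and 1780 to 1800 in DOT1L KD. The 3 fibroblast or epithelial markers summed to 130.1 to 132.3 CPM in K562 control, 194.1 to 205.4 in DOT1L KO, where only COL1A1 was above its control mean, and 105.4 to 113.2 in ENL KO. The part of these shifts in the Mediator results was not tested. In these bulk samples a change in the cells that make a transcript and a change in RNA per cell cannot be told apart.

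Levels of different genes are compared as CPM per kilobase of exon (CPM per kb). By this measure 33 of 33 Mediator genes were above 1 CPM per kb in HEL control and 32 of 33 in K562 control, all but MED12L. In K562 control the median gene stood at 14.2 CPM per kb. The tail subunit MED15, a target of many activators, was highest at 126 CPM per kb, followed by the tail subunits MED25 at 56.9 and MED24 at 51.1. MED12L was lowest at 0.00898 CPM per kb, with 2 counts in each control library, and the next lowest was MED30 at 3.15. In HEL control the median was 15.2 CPM per kb. The head subunit MED8 was highest at 67.1 and the middle subunit MED31 was lowest at 2.91. The 5 tail genes summed to 267 CPM per kb in K562 control and to 73.9 in HEL control, and the 7 kinase module genes summed to 106 and 147. Exons of the tail gene MED16 are listed on 2 chromosome names, so its exonic length and its level per kb are uncertain. Over all 33 genes the sum was 667 CPM per kb in K562 control, 646 in DOT1L KO and 676 in ENL KO, and 579 in HEL control and 560 in DOT1L KD. The tables count fragments in K562 and reads in HEL and were normalized separately, so these differences between the lines are descriptions without a test.

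**Figure D1:**
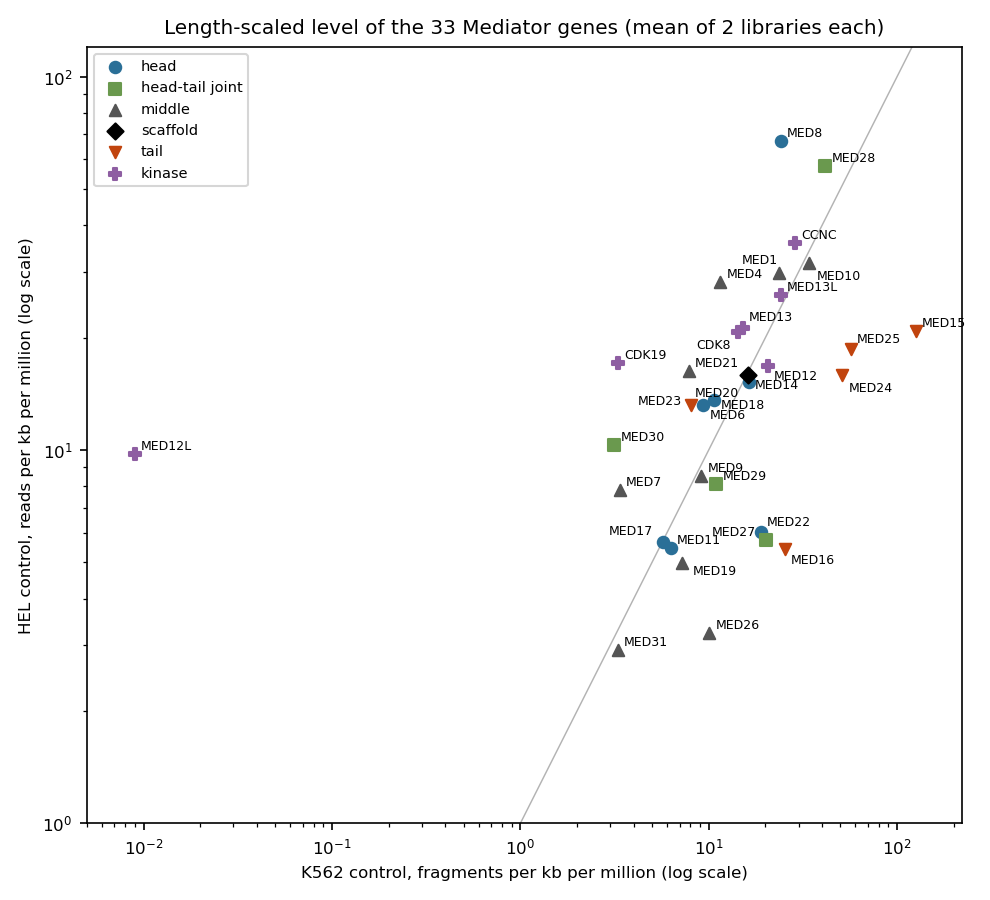
Mean level of each of the 33 Mediator genes in K562 control (x axis, fragment CPM per kb, log scale) and HEL control (y axis, read CPM per kb, log scale), 2 libraries per line, with marker shapes for the modules and a grey line of equal level. MED12L stands alone at the left, at 0.00898 in K562 and 9.77 in HEL, and the tail genes MED15, MED24 and MED25 lie below the line.

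The level of MED31 is uncertain in both lines. TXNDC17, a thioredoxin-like gene on the opposite strand, covers 74.2% of the exonic length of MED31, and the use of strand in counting is not stated. TXNDC17 was at 23.6 CPM in K562 control and 28.5 in HEL control, against 5.44 and 4.82 for MED31. MED4 shares 13.4% of its exonic length with MED4-AS1, which was at 0 in both control groups. MED11 shares 8.45% of its length with CXCL16, which was at 0.467 and 1.23 CPM, and MED14 shares 2.32% with MED14OS, at 0.117 and 0.438 CPM.

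Loss of DOT1L in K562 moved the Mediator genes in both directions. MED12L rose from near 0, MED29, MED14, MED4, MED12, MED19 and MED17 rose by 1.18 to 1.32-fold, and MED30, CDK8, MED25, MED13L, CCNC and MED15 fell. At an adjusted p below 0.05 in edgeR's quasi-likelihood fit of 14301 genes (Benjamini-Hochberg), 7 Mediator genes were higher and 6 lower, against 26.9% and 24.2% of all tested genes. That is 39.4% of the 33, against 51.1% of all tested genes in either direction and 51.8% of tested genes averaging at least 5 CPM. A change of 0.5 or more on the log2 scale, either way, was met by 3 of them (MED12L, MED30 and CDK8) and by 28.6% of all tested genes. The libraries of the groups did not overlap for 23 of the 33, 14 above and 9 below the controls, and for 68.1% of all tested genes. The median log2 fold change of the 33 genes was 0.07, and 0.01 over all tested genes. Their median absolute log2 fold change was 0.14, and 0.29 over all tested genes. The split was 10 higher and 5 lower with libraries scaled by total counts, 4 and 6 without control replicate 1, and 6 and 4 without control replicate 2.

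With both control libraries in the fit, more of the called Mediator genes were higher than lower in ENL KO. MED19, MED23, MED29, MED17, MED12, MED20, MED1 and MED16 rose by 1.11 to 1.37-fold, and MED13L and MED25 fell. The count of 10 of 33 genes past the threshold (30.3%), 8 higher and 2 lower, stood beside 41.0% of all tested genes (18.8% higher and 22.2% lower) and 44.3% of those averaging at least 5 CPM. None of the 33 was past an absolute log2 fold change of 0.5 in edgeR or DESeq2, at an adjusted or an unadjusted p (0 of 33), against 21.0% of all tested genes. The libraries did not overlap for 18 of the 33, 11 above and 7 below the controls, and for 59.6% of all tested genes. The 7 include MED12L, at 0, 0 and 1 counts in ENL KO against 2 and 2, too few to compare. A fit of ENL KO and control alone tested 32 Mediator genes, without MED12L. The median log2 fold change was 0.09 against 0.003 over all tested genes, and the median absolute log2 fold change 0.17 against 0.25. The count was 2 without control replicate 1, 6 without control replicate 2 and 17 with all deposited columns, in which 1 control library counts again. Upper-quartile scaling gave 6 higher and 3 lower. Both knockouts were compared with the same 2 control libraries, so their values are set side by side and not correlated. The ENL KO labels name no sequencing lane, whereas those of the other K562 libraries do, so a lane or batch difference and the ENL knockout cannot be told apart.

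DOT1L knockdown in HEL also moved the genes both ways. MED11, MED20, MED16, MED17, MED24 and CCNC rose, and MED12L, MED29, MED8, MED15, MED1, MED12, MED14, MED23, MED25, CDK8 and MED13 fell. Of the 33 genes 17 passed the threshold (51.5%), against 55.0% of 12635 tested genes (27.0% higher and 28.0% lower) and 60.8% of those averaging at least 5 CPM. MED12L and MED11 were past an absolute log2 fold change of 0.5 (2 of 33), against 19.4% of all tested genes. The libraries did not overlap for 26 of the 33, 13 above and 13 below the controls, and for 75.9% of all tested genes. The median log2 fold change was -0.007 against 0.013 over all tested genes. The split of 6 higher and 11 lower became 10 and 8 with scaling by total counts and 11 and 7 with upper-quartile scaling, and DESeq2 called 9 genes, 2 higher and 7 lower. The HEL replicates of a group differed by little more than counting noise: the chi-square between them was 1.48 and 1.33 times its degrees of freedom, and 4.24 to 10.2 times in K562.

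**Figure D2:**
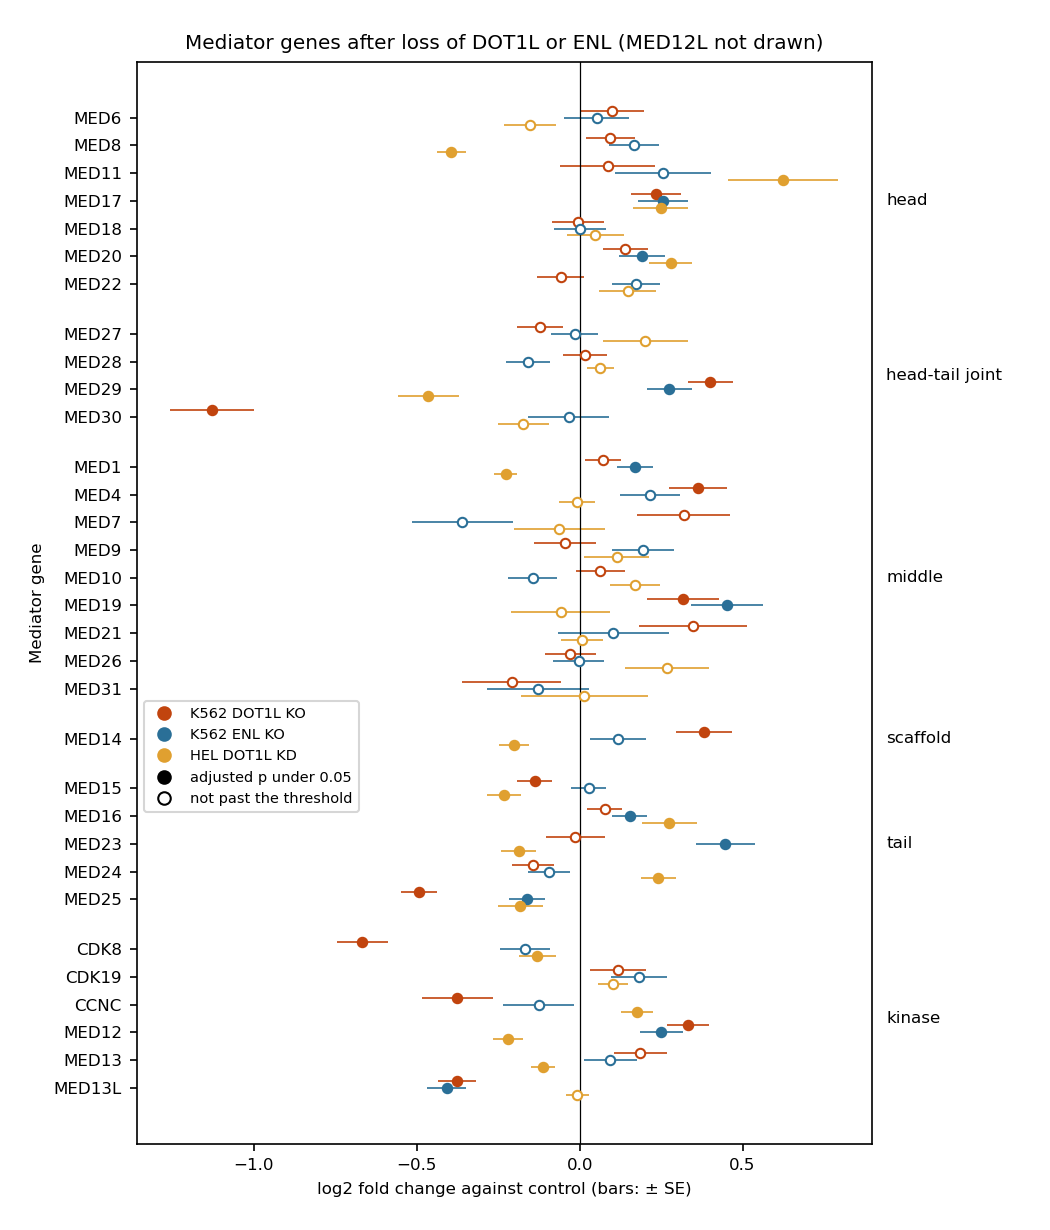
Log2 fold change against control (x axis, bars ± SE) of 32 Mediator genes (y axis, grouped by module) in K562 DOT1L KO, K562 ENL KO and HEL DOT1L KD; filled points passed an adjusted p of 0.05. MED30 at -1.13 in K562 DOT1L KO lies farthest from 0, MED29 is to the right of 0 in both knockouts and to the left in HEL, and MED12L is left out because of its near-zero counts in K562.

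The kinase module had 5 of 7 genes past the threshold in DOT1L KO and 2 of 7 in ENL KO, beside 51.1% and 41.0% of all tested genes. In HEL CDK8, CCNC, MED12, MED12L and MED13 passed, beside 55.0% of all tested genes. The module also held the gene that differed most. MED12L, the rarer paralogue of the CDK8 activator MED12, has 43 exon blocks in the tables, at chr3:151086798-151436677 on the plus strand. It had 2 and 2 counts in the K562 controls, 70, 86 and 73 in DOT1L KO, and 0, 0 and 1 in ENL KO. Every DOT1L KO library was therefore above every other K562 library. From 229 against 4 counts the level in DOT1L KO was 33.6 times that of control, with an exact 95% interval of 12.9 to 124 that covers counting error only. From 229 against 1 count it was 178 times that of ENL KO (31.7 to 7069). Both calls passed in edgeR's quasi-likelihood test (adjusted p = 3.08e-07 and 2.26e-08). In K562, however, MED12L passed the filter on low counts only through the DOT1L KO libraries. These adjusted p-values are therefore no support beyond the counts themselves. The level reached in DOT1L KO was low all the same, at 3.18, 2.91 and 3.46 CPM. Every control and ENL KO library was under the floor of 3 counts that a count of 0 allows, so no fold is given between them.

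In HEL MED12L went the other way. It was at 100.8 and 103.2 CPM in the controls and at 41.4 and 43.3 in DOT1L KD, without overlap. The ratio was 0.415 with a counting interval of 0.386 to 0.446, a log2 fold change of -1.27 ± 0.05 (SE, n = 2 per group, adjusted p = 2.81e-26 in edgeR's test). IGSF10, an immunoglobulin superfamily gene on the opposite strand, shares 688 bp or 6.59% of the exonic length of MED12L. IGSF10 averaged 0.962 CPM in K562 control, 6.79 in DOT1L KO and 0.832 in ENL KO, and in HEL 63.3 in control and 63.2 in DOT1L KD. In K562 it rose in DOT1L KO as MED12L did (log2 fold change 2.81, adjusted p = 5.57e-08 in edgeR's test), whereas in HEL its log2 fold change was -0.001 ± 0.06 (adjusted p = 0.984). The use of strand in counting is not stated, and whether IGSF10 RNA affected the MED12L counts was not tested.

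CDK8, the kinase that gives the module its name, was at 43.5 and 44.3 CPM in K562 control, 28.1, 27.2 and 27.8 in DOT1L KO and 41.6, 35.9 and 39.8 in ENL KO. The DOT1L KO libraries were below all others. CDK8 fell by 0.67 ± 0.08 on the log2 scale in DOT1L KO (SE, adjusted p = 8.45e-06 in edgeR's test) and was lower there than in ENL KO (-0.50 ± 0.07, adjusted p = 3.78e-05). The difference between ENL KO and control missed the threshold (-0.17 ± 0.08, adjusted p = 0.100), which it passed without ENL KO replicate 1 (0.0498) and with all deposited columns (0.0324). In HEL CDK8 was at 63.9 and 64.1 CPM in control and 58.9 and 58.1 in DOT1L KD, a fall of 1.09-fold (adjusted p = 0.0454) that 9 of 10 alternative settings lost, among them leaving out any 1 of the 4 libraries.

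CCNC encodes cyclin C, the cyclin of CDK8 and CDK19. Its values were 68.4 and 69.6 CPM in K562 control, 44.9, 59.9 and 54.4 in DOT1L KO and 55.7, 65.0 and 69.3 in ENL KO. The DOT1L KO libraries were below the controls and overlapped those of ENL KO. CCNC fell by 0.38 ± 0.11 on the log2 scale in DOT1L KO (adjusted p = 0.0105 in edgeR's test), a call lost without control replicate 2 (adjusted p = 0.0597). In HEL it rose from 89.1 and 82.6 to 93.9 and 100.1 CPM (log2 fold change 0.18 ± 0.05, adjusted p = 0.00217), a call lost without control replicate 2 (0.0800) or DOT1L KD replicate 2 (0.0758), without the filter on low counts (0.0587) and in DESeq2 (0.103).

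CDK19, the paralogue of CDK8, passed the threshold in none of the comparisons in edgeR's test. Its log2 fold changes were 0.12 in DOT1L KO (adjusted p = 0.271), 0.18 in ENL KO (0.113) and 0.10 in HEL DOT1L KD (0.0587). In the unadjusted test p was 0.190, 0.0557 and 0.0331. The HEL value passed when libraries were scaled by total counts (0.00750) or upper quartiles (0.00126), and without control replicate 2 (0.0151) or DOT1L KD replicate 1 (0.0226), and the ENL KO value with all deposited columns (0.0442). Of the length-scaled counts of the pair, CDK19 took 18.88% and 18.87% in the K562 controls, 28.9%, 29.1% and 27.9% in DOT1L KO, and 20.9%, 23.9% and 24.1% in ENL KO. In HEL it took 44.3% and 46.0% in control and 48.2% and 50.2% in DOT1L KD. The shares of DOT1L KO lie above those of the other K562 libraries, as a description without a test.

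**Figure D3:**
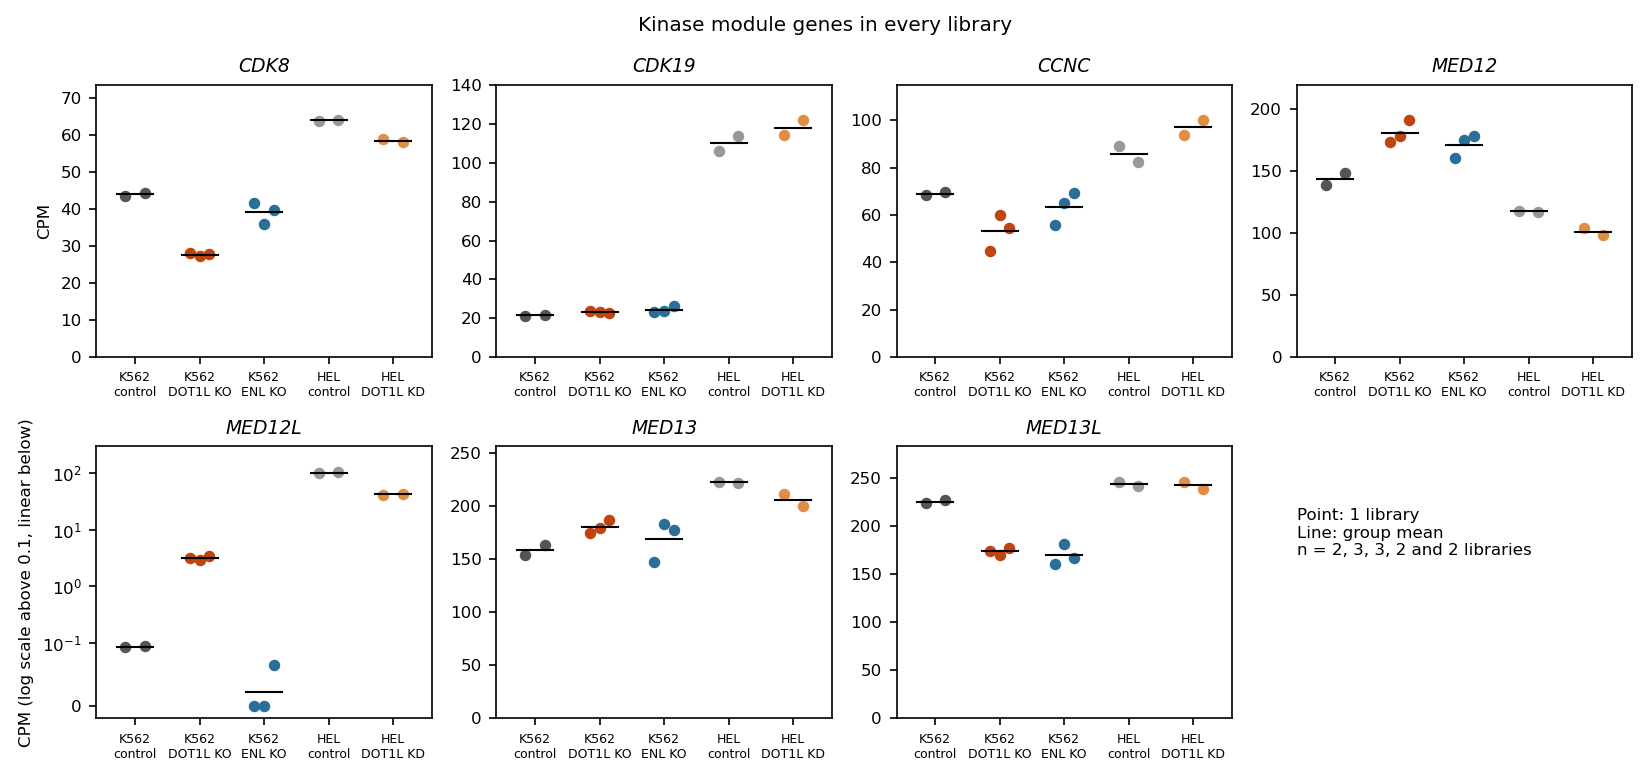
CPM of the 7 kinase module genes (y axis, linear from 0 except for MED12L) in every library of the 5 groups (x axis), with points for libraries and lines for group means. CDK8 lies between 27.2 and 28.1 CPM in K562 DOT1L KO, below all other K562 libraries, and MED12L spans 0 to 103.2 CPM.

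MED12 itself, which activates the kinase, rose in both K562 knockouts and fell in HEL. It was at 138.8 and 148.5 CPM in K562 control, 173.2, 178.2 and 191.0 in DOT1L KO and 160.2, 174.7 and 178.1 in ENL KO. Both knockouts were above the controls, by 0.33 ± 0.07 (adjusted p = 0.000810) and 0.25 ± 0.07 on the log2 scale (adjusted p = 0.00754, edgeR), and the ENL call was lost without control replicate 1 (0.0965). In HEL it was at 117.8 and 116.8 CPM in control and 103.5 and 97.8 in DOT1L KD, a log2 fold change of -0.22 ± 0.05 (adjusted p = 5.35e-05). MED12L made up 36.4% and 37.1% of the length-scaled counts of MED12 and MED12L in HEL control and 21.1% and 22.8% in DOT1L KD. In K562 the share stayed at or below 1.21% in every library.

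MED13 and MED13L link the kinase module to the core. MED13L was at 223.9 and 227.3 CPM in K562 control, 174.2, 170.0 and 177.4 in DOT1L KO and 160.8, 181.7 and 167.4 in ENL KO. Every knockout library was below the controls. The falls were 0.38 ± 0.06 in DOT1L KO (adjusted p = 0.000124) and 0.41 ± 0.06 in ENL KO (adjusted p = 9.16e-05) on the log2 scale in edgeR's test, and the knockouts did not differ past the threshold (0.03 ± 0.05, adjusted p = 0.623). HEL showed 246.7 and 241.8 CPM in control and 246.7 and 239.2 in DOT1L KD (-0.01 ± 0.03, adjusted p = 0.873).

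MED13 was at 154.0 and 163.1 CPM in K562 control, 174.9, 179.3 and 187.1 in DOT1L KO and 146.9, 182.8 and 178.0 in ENL KO. Its log2 fold change in DOT1L KO was 0.19 ± 0.08 and missed the threshold (adjusted p = 0.0705 in edgeR's test), which it passed under 6 of 16 alternatives, among them leaving out ENL KO replicate 1 (0.0112). In ENL KO it was 0.09 ± 0.08 (adjusted p = 0.387, 0.0250 without ENL KO replicate 1). In HEL it fell from 223.3 and 221.9 to 211.9 and 200.2 CPM (-0.11 ± 0.04, adjusted p = 0.00856), a call lost in DESeq2 (0.0650), with scaling by total counts (0.0703) or upper quartiles (0.392), and without DOT1L KD replicate 2 (0.219). Of the length-scaled counts of MED13 and MED13L, MED13L took 61.9% and 60.9% in the K562 controls, 51.4% to 52.6% in DOT1L KO and 51.2% to 55.0% in ENL KO. In HEL it took 55.2% and 54.9% in control and 56.5% and 57.1% in DOT1L KD.

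**Figure D4:**
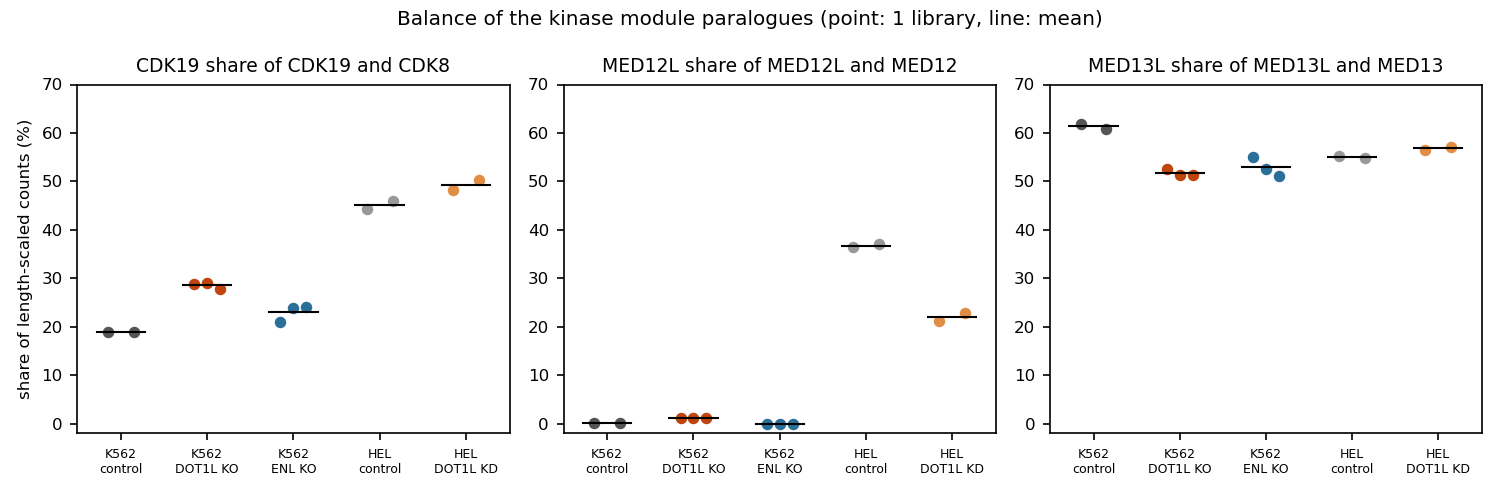
Share of CDK19, MED12L and MED13L in the summed length-scaled counts of each paralogue pair (y axis, percent) in every library of the 5 groups (x axis), with lines for group means. The CDK19 share is 27.9% to 29.1% in K562 DOT1L KO against 18.9% in the controls, and MED13L is lower in both K562 knockouts but not in HEL.

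MED14, the scaffold subunit, was at 102.7 and 117.1 CPM in K562 control, 131.6, 148.6 and 149.0 in DOT1L KO and 106.5, 126.7 and 124.9 in ENL KO. The DOT1L KO libraries lay above all others. MED14 rose by 0.38 ± 0.09 on the log2 scale in DOT1L KO (adjusted p = 0.00229 in edgeR's test), a call lost without control replicate 1 (0.0510), and was higher there than in ENL KO (0.26 ± 0.08, adjusted p = 0.00932). In HEL it was at 106.5 and 108.9 CPM in control and 95.4 and 91.8 in DOT1L KD, a log2 fold change of -0.20 ± 0.05 (adjusted p = 0.000221).

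Of the 4 subunits between head and tail, MED30 had the largest fall. It is encoded at chr8:117520713-117540262. Its values were 10.6 and 9.79 CPM in K562 control, 4.72, 4.70 and 4.59 in DOT1L KO and 8.60, 10.4 and 11.1 in ENL KO. The DOT1L KO libraries were below all others, and the level there was 2.19-fold lower than in control (log2 fold change -1.13 ± 0.13, adjusted p = 7.72e-06 in edgeR's test). No alternative setting changed this call. MED30 in HEL was at 34.4 and 32.5 CPM in control and 29.03 and 30.3 in DOT1L KD, without overlap but short of the threshold (-0.17 ± 0.08, adjusted p = 0.0591).

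MED29 moved in opposite directions in the lines. It was at 38.1 and 40.5 CPM in K562 control, 52.8, 53.0 and 49.98 in DOT1L KO and 48.1, 48.6 and 45.9 in ENL KO, with both knockouts above the controls. The log2 fold changes were 0.40 ± 0.07 (adjusted p = 0.000265) and 0.27 ± 0.07 (adjusted p = 0.00615, lost without control replicate 1 at 0.0800) in edgeR's test. In HEL it was at 32.0 and 26.2 CPM in control and 22.2 and 19.9 in DOT1L KD (-0.46 ± 0.09, adjusted p = 3.57e-05). MED27 and MED28 passed the threshold against control in neither line in edgeR's test, with log2 fold changes from -0.16 to 0.20 and the lowest adjusted p of 0.0788 for MED28 in ENL KO. That value passed without ENL KO replicate 3 (0.0428) and with upper-quartile scaling (0.0345), and MED28 in HEL passed with scaling by total counts (0.0357) or upper quartiles (0.00457).

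The head, which contacts the polymerase, had 1 of 7 genes past the threshold in DOT1L KO, 2 in ENL KO and 4 in HEL, where 51.1%, 41.0% and 55.0% of all tested genes passed. MED17, a central head subunit, was the Mediator gene called higher in all 3 comparisons with a control. It was at 27.9 and 30.0 CPM in K562 control, 34.4, 34.6 and 33.4 in DOT1L KO, 33.2, 34.4 and 36.5 in ENL KO, and in HEL at 25.5 and 32.3 in control and 35.3 and 33.3 in DOT1L KD. Its log2 fold changes were 0.24 ± 0.08, 0.26 ± 0.08 and 0.25 ± 0.09, with adjusted p of 0.0198, 0.0167 and 0.0116 in edgeR's test. The K562 calls were lost without control replicate 1 (0.180 and 0.156), the first also without the filter on low counts (0.0567). The HEL call was lost without control replicate 1 (0.491) or DOT1L KD replicate 1 (0.0790), in DESeq2 (0.201) and without the filter (0.165).

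MED8, which anchors part of the head, fell in HEL from 133.6 and 141.4 CPM to 105.9 and 103.4 (-0.39 ± 0.04 on the log2 scale, adjusted p = 8.32e-11 in edgeR's test). In K562 it was at 49.0 and 49.8 CPM in control, 53.7, 55.8 and 48.6 in DOT1L KO and 58.8, 54.3 and 53.0 in ENL KO, with no call (adjusted p = 0.321 and 0.102). The other head calls were chosen for naming after their values were seen. MED20 rose in ENL KO (0.19 ± 0.07, adjusted p = 0.0424, lost under 9 of 16 alternatives, among them without either control or any 1 ENL KO library) and in HEL (0.28 ± 0.07, adjusted p = 0.000289). MED11 rose in HEL from 5.27 and 5.32 to 7.56 and 8.78 CPM (0.62 ± 0.17, adjusted p = 0.00158, 0.0783 in DESeq2).

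**Figure D5:**
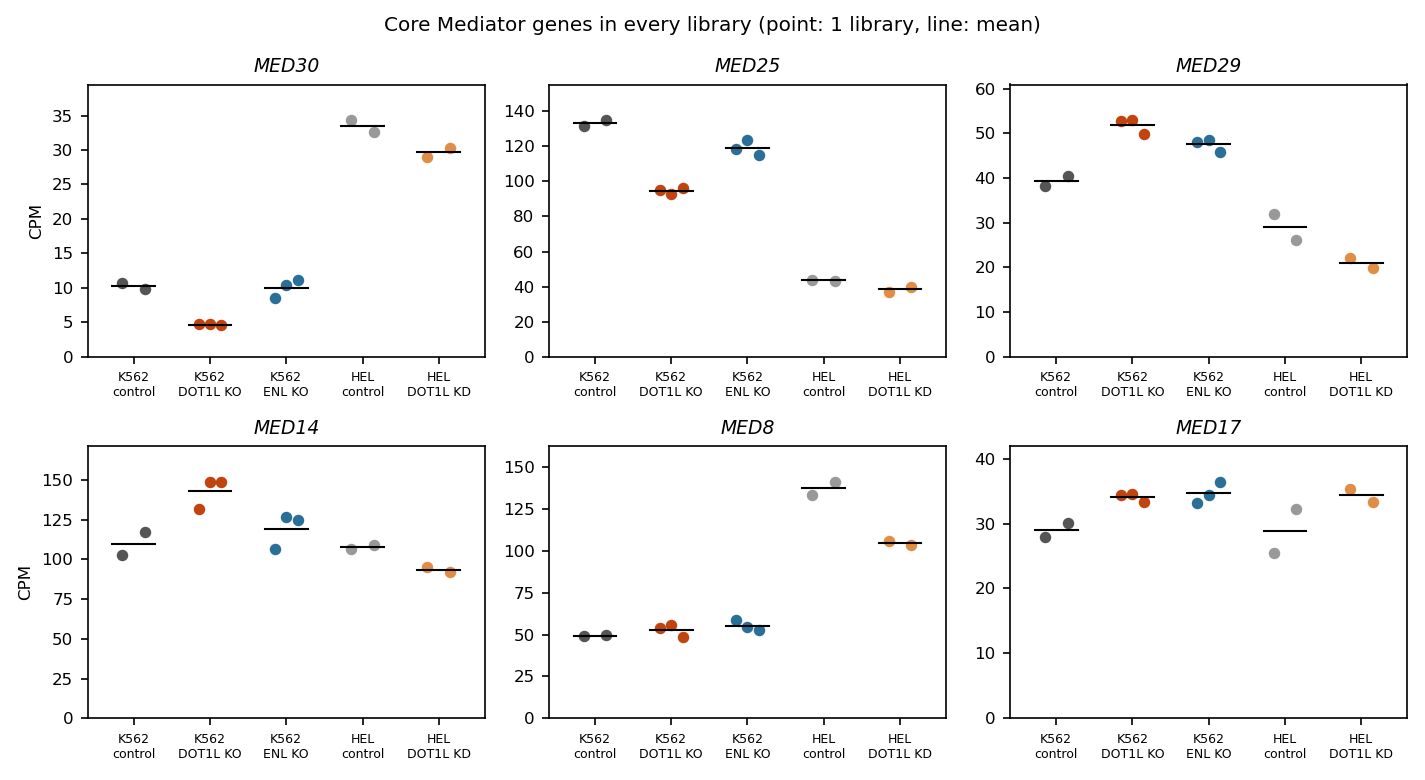
CPM of 6 core Mediator genes (y axis, linear from 0) in every library of the 5 groups (x axis), with points for libraries and lines for group means. MED30 and MED25 are lowest among the K562 groups in DOT1L KO, MED29 and MED14 are higher in K562 DOT1L KO and lower in HEL DOT1L KD, and MED8 falls from 137.5 to 104.7 CPM in HEL.

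In the middle module, 2 of 9 genes passed the threshold in each K562 knockout and 1 of 9 in HEL, beside the same 51.1%, 41.0% and 55.0% of all tested genes. MED1, the subunit that binds nuclear receptors and GATA1, was at 187.2 and 197.0 CPM in K562 control, 198.2, 207.7 and 199.7 in DOT1L KO and 206.9, 223.3 and 217.7 in ENL KO. The ENL KO libraries were above the controls (0.17 ± 0.06, adjusted p = 0.0265 in edgeR's test). This call was lost without control replicate 1 (0.207), control replicate 2 (0.0532) or ENL KO replicate 2 (0.116), and in a fit of the compared groups alone (0.0507). In HEL MED1 fell from 239.2 and 246.9 to 212.9 and 202.2 CPM (-0.23 ± 0.04, adjusted p = 4.46e-07).

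MED26, the middle subunit that recruits elongation factors, passed in none of the comparisons in edgeR's test. It was at 33.5 and 30.8 CPM in K562 control, 30.3, 33.01 and 31.1 in DOT1L KO, 32.6, 32.6 and 31.0 in ENL KO, and in HEL at 10.8 and 9.84 in control and 12.9 and 11.96 in DOT1L KD. The HEL difference was 0.27 ± 0.13 on the log2 scale (adjusted p = 0.0740) and passed with scaling by total counts (0.0408) or upper quartiles (0.0217). MED19 was higher in both knockouts, at 10.6 and 13.0 CPM in control, 16.0, 13.8 and 14.5 in DOT1L KO and 16.4, 16.5 and 15.6 in ENL KO. Its log2 fold changes were 0.32 ± 0.11 (adjusted p = 0.0270) and 0.45 ± 0.11 (adjusted p = 0.00512), and both calls were lost without control replicate 1 (0.308 and 0.0923), the first also without DOT1L KO replicate 1 (0.0856). MED4, named after its value was seen, rose in DOT1L KO (0.36 ± 0.09, adjusted p = 0.00400, 0.0780 without control replicate 2).

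All 5 tail genes passed the threshold in HEL, 2 higher and 3 lower, beside 55.0% of all tested genes and 60.8% of those averaging at least 5 CPM. In DOT1L KO 2 of the 5 were lower (51.1% of all tested genes called), and in ENL KO 2 were higher and 1 lower (41.0%). MED25, the tail subunit that binds several activators, was called lower in all 3. It was at 131.6 and 135.0 CPM in K562 control, 95.1, 93.1 and 96.0 in DOT1L KO and 118.7, 123.4 and 115.0 in ENL KO. DOT1L KO was below all other K562 libraries, at a log2 fold change of -0.49 ± 0.05 (adjusted p = 5.58e-06 in edgeR's test), and below ENL KO by 0.33 ± 0.05 (adjusted p = 6.25e-05). The ENL KO difference was -0.16 ± 0.05 (adjusted p = 0.0301), lost under 5 of 16 alternatives: without either control, ENL KO replicate 1 or 3, or the filter on low counts. In HEL the values were 44.0 and 43.1 CPM in control and 36.9 and 39.9 in DOT1L KD (-0.18 ± 0.07, adjusted p = 0.0238), a call lost under 6 of 10 alternatives, among them leaving out control replicate 1 or DOT1L KD replicate 1.

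MED23, a tail subunit that receives growth factor signals, rose in ENL KO alone of the K562 knockouts. It was at 43.0 and 47.7 CPM in control, 43.5, 44.4 and 46.9 in DOT1L KO and 55.4, 61.4 and 68.9 in ENL KO. The rise was 0.45 ± 0.09 on the log2 scale (adjusted p = 0.00131 in edgeR's test), and DOT1L KO was below ENL KO by 0.46 ± 0.08 (adjusted p = 0.000205). In HEL it fell from 73.1 and 74.5 to 63.1 and 66.5 CPM (-0.19 ± 0.05, adjusted p = 0.00275), a call lost without DOT1L KD replicate 1 (0.0606), in DESeq2 (0.07001) and with upper-quartile scaling (0.0689). The other tail calls were named after their values were seen. MED15 fell in DOT1L KO (-0.14 ± 0.05, adjusted p = 0.0457), which 8 of 16 alternatives lost, among them leaving out either control or DOT1L KO replicate 1 or 2, and in HEL (-0.23 ± 0.05, adjusted p = 0.000216). MED24 rose in HEL (0.24 ± 0.05, adjusted p = 0.000171). MED16 rose in HEL (0.27 ± 0.08, adjusted p = 0.00488, lost in DESeq2 at 0.139 and without control replicate 2 at 0.0691) and in ENL KO (0.15 ± 0.05, adjusted p = 0.0355, lost under 7 of 16 alternatives, among them without either control or ENL KO replicate 1 or 2).

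The K562 knockouts were also compared directly. Of the 33 Mediator genes 13 passed the threshold, 5 higher and 8 lower in DOT1L KO than in ENL KO, against 60.2% of all tested genes (31.8% higher and 28.3% lower) and 60.7% of those averaging at least 5 CPM. MED12L, MED30 and MED7 were past an absolute log2 difference of 0.5 (3 of 33), against 32.8% of all tested genes. The libraries did not overlap for 15 of the 33, 7 above and 8 below, and for 63.3% of all tested genes. The median log2 difference was -0.05, and 0.0003 over all tested genes. MED12L, MED7, MED14, MED10 and MED28 were higher in DOT1L KO. MED30, CDK8, MED23, MED25, CCNC, MED9, MED22 and MED15 were lower there. MED7, a middle subunit named after its values were seen, was at 6.18, 6.52 and 5.87 CPM in DOT1L KO and 3.67, 3.50 and 4.56 in ENL KO (0.68 ± 0.13, adjusted p = 0.000606), from 70 to 193 counts per library. The CCNC call (-0.25 ± 0.10, adjusted p = 0.0422) was lost under 10 of 16 alternatives, among them leaving out either control, DOT1L KO replicate 1 or 3, or ENL KO replicate 2 or 3. Leaving out 1 of DOT1L KO replicates 2 and 3 or ENL KO replicates 1 and 2 ended the call for MED9 (adjusted p 0.0547 to 0.109), leaving out DOT1L KO replicate 2 or ENL KO replicate 1 or 2 that for MED28 (0.0505 to 0.107), leaving out DOT1L KO replicate 1 or ENL KO replicate 3 that for MED10 (0.0645 and 0.0546), and leaving out ENL KO replicate 2 that for MED15 (0.0508). Scaling by total counts gave 7 higher and 5 lower, and upper-quartile scaling 7 and 6. The MED9 call was lost with either scaling (adjusted p = 0.0690 and 0.0644 in edgeR's test), and that for MED15 with scaling by total counts (0.0502). MED4 and MED29 passed with either scaling. Without the filter on low counts the MED10 call was lost (0.0538).

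Whether the response to DOT1L loss differed between the lines was tested as an interaction in 1 edgeR fit of 9 libraries. The lines also differ in how DOT1L was reduced and in what was counted, which cannot be told apart from the line. Of the 33 genes 14 passed the threshold (42.4%), against 38.9% of 15367 tested genes (19.8% higher and 19.1% lower) and 48.5% of those averaging at least 5 CPM. A difference of at least 0.5 was met by 7 of 33, against 25.4% of all tested genes. The response in HEL was above that in K562 for 6 genes and below it for 8. CCNC, MED12, MED12L, MED14 and MED29 were each called in opposite directions in the lines: CCNC was lower in K562 and higher in HEL, and the other 4 were higher in K562 and lower in HEL. The differences in log2 fold change, HEL minus K562, were 0.57 ± 0.12 for CCNC (adjusted p = 0.000833), -0.53 ± 0.08 for MED12 (2.69e-05), -0.57 ± 0.10 for MED14 (7.03e-05) and -0.85 ± 0.13 for MED29 (1.89e-05). For MED12L the test passed (adjusted p = 1.19e-12), while the size of the fitted difference depends on the 4 control counts. CDK8 (0.56 ± 0.09, adjusted p = 6.02e-05) and MED30 (0.97 ± 0.15, adjusted p = 1.49e-05) had the higher response in HEL, where their falls were smaller in value. CDK19 and MED17 did not differ past the threshold (adjusted p = 1.00 and 0.929), with differences of 0.001 ± 0.10 and 0.03 ± 0.13.

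RNA polymerase II subunits and proteins that work beside Mediator formed a list of 24 genes. It held, among others, the 12 polymerase subunits POLR2A to POLR2L and POLR2M, the CDK7 kinase of TFIIH with CCNH and MNAT1, the cohesin genes NIPBL and SMC1A, the elongation factors AFF4, ELL, EAF1 and EAF2, and FBXW7, which marks MED13 for degradation. In DOT1L KO 3 were higher and 8 lower, in ENL KO 5 and 2, and in HEL, where CDK7 is listed at 0 in every library and was not tested, 4 and 6 of 23. In DOT1L KO against ENL KO 3 were higher and 9 lower. The 9 include CDK7, which had only 23 to 28 counts per DOT1L KO library and 28 to 29 per ENL KO library (adjusted p = 0.0467 in edgeR's test). With scaling by total counts the splits were 3 higher and 4 lower, 4 and 3, 5 and 3, and 4 and 5, and upper-quartile scaling gave 4 and 3 in ENL KO and 5 and 3 in HEL as well. The shares of 45.8%, 29.2% and 43.5%, and 12 of 24 between the knockouts, compare with 51.1%, 41.0%, 55.0% and 60.2% of all tested genes in the same comparisons. The median log2 fold changes of the list were -0.07, 0.06, -0.02 and -0.07. The DOT1L KO count ranged from 3, without control replicate 2, to 12 when 1 library was left out, and was 5 without control replicate 1, 7, 6 and 6 without DOT1L KO replicates 1, 2 and 3, and 7 with scaling by total counts.

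EAF2, an elongation factor gene of low level in K562, was at 2.88 and 3.50 CPM in control, 1.73, 2.13 and 1.75 in DOT1L KO and 5.17, 6.52 and 6.12 in ENL KO. The groups did not overlap: it fell in DOT1L KO (-0.75 ± 0.19, adjusted p = 0.00535 in edgeR's test, 0.0682 without control replicate 2) and rose in ENL KO (0.89 ± 0.17, adjusted p = 0.00104). In HEL it fell from 20.9 and 27.6 to 15.0 and 15.0 CPM (-0.69 ± 0.11, adjusted p = 3.23e-07). MNAT1, the assembly factor of the CDK7 kinase, fell in DOT1L KO from 24.3 and 24.2 to 16.6, 16.5 and 13.3 CPM (-0.64 ± 0.10, adjusted p = 0.000133). CCNH, the cyclin of CDK7, rose in ENL KO from 65.3 and 71.0 to 101.1, 102.4 and 111.8 CPM (0.62 ± 0.07, adjusted p = 6.43e-06).

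POLR2J and POLR2A were the largest rises of the list in DOT1L KO (0.23 ± 0.07, adjusted p = 0.0149, and 0.19 ± 0.07, adjusted p = 0.0406, in edgeR's test). Without control replicate 1 neither passed (0.0596 and 0.425), nor POLR2J without control replicate 2 (0.109), nor POLR2A without DOT1L KO replicate 2 (0.0660) or 3 (0.126). In ENL KO the falls were POLR2M (-0.59 ± 0.16, adjusted p = 0.00895, 0.165 without control replicate 1) and NIPBL, the cohesin loader (-0.42 ± 0.06, adjusted p = 9.64e-05). In HEL POLR2L rose from 28.1 and 29.4 to 44.1 and 47.2 CPM (0.66 ± 0.07, adjusted p = 5.12e-11), and POLR2B, the second largest polymerase subunit, fell from 197.2 and 186.5 to 122.7 and 119.6 CPM (-0.66 ± 0.04, adjusted p = 6.90e-20). POLR2I rose in HEL as well (0.27 ± 0.10, adjusted p = 0.0164), a call lost in DESeq2 (0.226) and without control replicate 2 (0.103) or DOT1L KD replicate 1 (0.100).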

How the data were processed

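The authors deposited whole-number counts per gene, fragments for K562 and reads for HEL, with exon positions and exonic lengths. Polyadenylated RNA went into dUTP libraries that keep the strand, per the labels' protocols. The submitters' processing notes name fastp 0.13.1, HISAT2 2.1.0 and featureCounts 1.6.1 among the tools, and hg38 and hg19, without roles. The strand setting is not given in the sources used here. Symbols of 26353 of 28131 genes (93.7%) matched RefSeq, and the table positions of all 33 Mediator genes overlapped those of GRCh38.p14.

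Samples were grouped by the labels. K562 control columns 2 and 3 were identical and entered once. Genes were kept with filterByExpr of edgeR 4.0.16 (R 4.3.3, minimum count 10, minimum total 15), scaled with TMM factors and compared with the quasi-likelihood test, the 3 K562 groups in 1 fit, HEL in another, and both lines in a joint fit for the interaction. Adjustment for multiple testing (Benjamini-Hochberg) ran over every tested gene. The SE was derived from the F statistic. CPM per kb divides CPM by exonic length. A floor of 3 counts was worth 0.103 to 0.247 CPM; intervals and floors cover counting error only. Except for MED12L, Mediator genes had at least 58 counts in every library. The fits were tested on simulated data.

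Values were given for the targeted genes, the kinase module, MED14, MED1 and MED26, the 5 Mediator genes with the smallest adjusted p in each comparison, those changed by at least 0.8 on the log2 scale, those called alike in all 3 comparisons with a control or in opposite directions in the lines, and the 2 largest partner changes in each direction. The members and lists were chosen with earlier results of these data known. Alternatives were other scalings, DESeq2 1.42.0, no filter, a replicate block, all deposited columns, the compared groups alone, a minimum change of 0.5 and leaving out each library. Motifs were counted in 250-base windows of RefSeq sequence. Not every gene of the marker and partner lists is reported by name here.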

Additional observations from a re-analysis of the deposited data

Results flagged for a closer look

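The response to DOT1L loss differed between HEL and K562 in 14 Mediator genes, by the interaction test in the joint edgeR fit. That is 42.4% of the 33, near the 38.9% of all tested genes and 48.5% of those averaging at least 5 CPM. Given as the HEL minus the K562 log2 fold change, the response in HEL was the higher one for MED30 (0.974), CCNC (0.569), CDK8 (0.555), MED24 (0.403), MED13L (0.387) and MED25 (0.33). It was the lower one for MED29 (-0.848), MED14 (-0.566), MED12 (-0.533), MED8 (-0.471), MED4 (-0.353), MED1 (-0.281) and MED13 (-0.28). The fitted difference for MED12L was -6.22, which rests on 4 control counts in K562 and is no measured size. The MED4 call was lost without K562 control replicate 2 (adjusted p = 0.0931), HEL control replicate 2 (0.0598) or HEL DOT1L KD replicate 2 (0.0558). Without HEL DOT1L KD replicate 2 the calls for MED13 (0.0519) and MED25 (0.0608) were lost as well. Groups of 2 and 3 libraries are too small for a check of single outlying libraries.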

How the results depend on the processing

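Over all alternatives, 3268 of 3477 recomputed fold changes of Mediator genes, named partner genes, DOT1L, MLLT1, IGSF10 and TXNDC17 stayed on their side of the threshold, 131 lost the call, 78 gained one and 0 reversed a called direction. Values that were not called in either setting could change sign. When changes under 0.5 on the log2 scale were not called, the Mediator counts were 3 in DOT1L KO, 0 in ENL KO, 3 in DOT1L KO against ENL KO, 2 in HEL and 7 in the interaction. The 0 in ENL KO was also 0 at an unadjusted p under 0.05, in edgeR and in DESeq2. The partner counts under that minimum were 2, 3, 5 and 3. A background of 28.6%, 21.0%, 32.8%, 19.4% and 25.4% of all tested genes passed it. With all deposited K562 columns the ENL KO Mediator count was 17. DESeq2 gave 9 Mediator and 4 partner calls in HEL, and scaling by total counts gave 7 partner calls in DOT1L KO. Leaving out 1 library at a time, the Mediator counts ranged from 10 to 15 in DOT1L KO, 2 to 12 in ENL KO, 9 to 12 between the knockouts, 14 to 15 in HEL and 11 to 15 in the interaction. The partner counts ranged from 3 to 12, 4 to 8 (4 without control replicate 1), 9 to 11 and 6 to 9 (6 without HEL control replicate 2 or either DOT1L KD library). Where 1 HEL or control library was left, it was assumed to vary like the other groups. Replicate numbers were not treated as pairing the samples. Deviations of same-numbered libraries correlated at 0.142 and 0.128 between the controls and each knockout. The correlations were 0.220, 0.0531 and 0.0948 between the knockouts, and 0.000442 in HEL. A fit with the replicate number as a block gave 17, 16, 16, 16 and 16 Mediator calls and 12, 9, 12 and 10 partner calls. No scaling moved the median of all genes by 0.1 or more on the log2 scale. Smaller shifts still went with changed splits. In HEL upper-quartile scaling moved that median by 0.073, and the Mediator split of 6 higher and 11 lower became 11 and 7. Where a count changed, the cause was not tested.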
